A study of Homo sapiens with 6 samples.

Results

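The let-7 and miR-98 precursors were compared between DICER without its helicase domain and full-length DICER for the variation of their products. The table of deposited values lists 147 microRNA (miRNA) hairpins, and its members of this family were taken by hairpin name: hsa-let-7a-1, hsa-let-7a-3, hsa-let-7d, hsa-let-7e, hsa-let-7f-1, hsa-let-7f-2 and hsa-mir-98, written below without the species prefix. They make up 7 of the 147 hairpins and stand for 6 of 127 miRNAs, since let-7a-1 and let-7a-3 are both listed for let-7a-3p. Every deposited sequence of these hairpins held the 5p miRNA that RefSeq (GRCh38.p14) gives for its name, and all 7 of these carried the let-7 seed GAGGUAG at bases 2 to 8. The RefSeq family holds 12 hairpins, and the other 5 (let-7a-2, let-7b, let-7c, let-7g and let-7i) were not analysed here.

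The cells were HCT116, a human colorectal carcinoma line, in a form with its own DICER gene knocked out. One group of 3 samples received a pXG plasmid for DICER without its helicase domain (DICER-delHelicase), and the other group of 3 received a pXG plasmid for full-length DICER (DICER-WT). Both groups were transfected with Lipofectamine and harvested after 48 h, so DICER came from a transfected plasmid in each. The table holds 1 variation score per hairpin and construct and no value per sample. The sources used here give neither its formula nor the depth behind it. No spread between replicates could be attached to a score, so every difference below is a description of combined scores, without a replicate check or a test.

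Let-7 miRNAs repress growth-promoting genes such as RAS, MYC and HMGA2, and their level is low in stem cells and in many tumours. DROSHA cuts the precursor hairpin from its primary transcript, and DICER then removes the apical loop, which sets the 3′ end of the 5p miRNA and the 5′ end of the 3p miRNA. The helicase domain of DICER lies near the loop of a bound precursor. The loop of let-7 precursors is also the landing site of LIN28, a protein that blocks their dicing. Precursors of the family fall in a pair of groups by the end that DROSHA leaves. Group I (let-7a-2, let-7c and let-7e) has the 2-nt 3′ overhang usual for miRNA precursors. Group II is known for a shorter overhang and receives a single uridine before dicing. Of the hairpins analysed, let-7e alone belongs to group I, and the other 6 belong to group II.

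The 7 precursors are shown from the first base of the 5p to the last base of the 3p miRNA, because the scores are listed for the 3p miRNAs and DICER cuts at the borders of the loop. The bases between the arms are in capitals. For let-7f-2 the 3p arm was placed by its first 6 bases, which all other members share, with a length of 22 nt.
let-7e: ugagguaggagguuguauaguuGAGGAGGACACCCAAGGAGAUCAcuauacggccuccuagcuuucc
let-7f-2: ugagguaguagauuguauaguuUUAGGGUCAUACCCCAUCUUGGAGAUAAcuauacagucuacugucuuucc
let-7a-1: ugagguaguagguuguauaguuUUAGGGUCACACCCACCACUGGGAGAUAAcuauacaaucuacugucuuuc
let-7a-3: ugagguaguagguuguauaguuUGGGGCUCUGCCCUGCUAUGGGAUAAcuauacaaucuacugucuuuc
mir-98: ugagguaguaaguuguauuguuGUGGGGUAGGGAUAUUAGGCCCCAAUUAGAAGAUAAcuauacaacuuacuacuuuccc
let-7f-1: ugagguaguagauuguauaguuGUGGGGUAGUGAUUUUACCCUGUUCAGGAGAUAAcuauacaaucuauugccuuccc
let-7d: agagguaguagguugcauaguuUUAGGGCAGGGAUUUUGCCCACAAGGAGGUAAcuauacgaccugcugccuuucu
The loop of let-7e is the shortest of the 7.

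The scores belong to the 3p miRNAs, whose first base is set by DICER. RefSeq gives the mature 3p sequence for 6 of the hairpins, in 5 distinct sequences, shown here with the seed (bases 2 to 8) in capitals because a shift of the 5′ end would move it.
let-7a-3p: cUAUACAAucuacugucuuuc
let-7f-1-3p: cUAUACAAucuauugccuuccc
miR-98-3p: cUAUACAAcuuacuacuuuccc
let-7d-3p: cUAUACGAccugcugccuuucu
let-7e-3p: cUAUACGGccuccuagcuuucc
The let-7a copies, let-7f-1 and mir-98 share a 3p seed, while let-7d and let-7e each have their own. The main 5′ end recorded for the DICER-WT libraries had offset 0 in all 7 hairpins. The header does not give the reference position of that offset.

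Without the helicase domain the scores of 6 of the 7 hairpins were higher and that of let-7d was lower. Of all 147 hairpins 72.1% were higher, so a count of 6 of 7 lay near the background. The score was higher by at least 0.05 in 6 of the 7 hairpins, against 46.3% of all hairpins. It was higher by at least 0.1 in 5 of the 7, against 37.4%, and by at least 0.2 in 3 of the 7, against 20.4%. The median score of the 7 was 0.327 (range 0.124 to 0.972) with DICER-delHelicase and 0.149 (range 0.0409 to 0.507) with DICER-WT. Their median change was 0.167, beside 0.0261 over all 147 hairpins and 0.0226 over the 140 others.

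**Figure D1:**
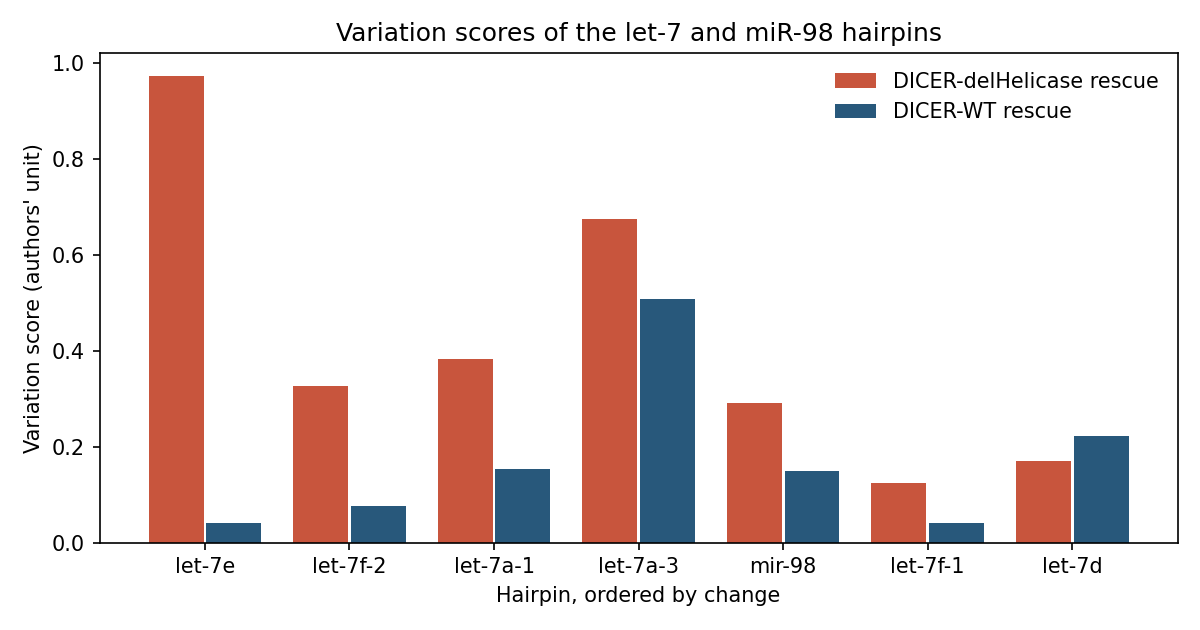
Variation score (vertical axis, in the authors' unit) of each let-7 and miR-98 hairpin with DICER-delHelicase (left bar) and DICER-WT (right bar), ordered by change; each bar is 1 combined value with no error. let-7e stands at 0.972 against 0.0409, and let-7d is the 1 hairpin with the lower bar on the left.

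The group I precursor let-7e had a score of 0.972 with DICER-delHelicase and 0.0409 with DICER-WT. It had the lowest DICER-WT score of the family and rank 95 of 147 in the table, and with DICER-delHelicase it had rank 2. The change of 0.931 was the largest of all hairpins, the next one being 0.784, and the ratio of the scores was 23.8. On the scale of log2(score + 0.01) the change of let-7e was 4.27, which was rank 2. Among the 10 hairpins outside the family with the nearest DICER-WT scores (0.0324 to 0.0485), a set chosen after the values were seen, changes ran from -0.0446 to 0.286, the highest being that of mir-30b, which is named after its value was seen.

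The 6 group II precursors changed by less than let-7e. Their changes ran from -0.0508 to 0.252 with a median of 0.155, so that let-7e exceeded that median by 0.776. With 1 hairpin of group I no spread within that group could be given. The group II scores had a median of 0.310 with DICER-delHelicase and 0.152 with DICER-WT.

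The let-7a copies had the highest group II scores with DICER-delHelicase. The score of let-7a-3 was 0.674 with DICER-delHelicase and 0.507 with DICER-WT, where it had rank 7 of 147. That of let-7a-1 was 0.382 with DICER-delHelicase and 0.154 with DICER-WT. These copies give an identical 3p miRNA, yet the score of let-7a-3 exceeded that of let-7a-1 by 0.292 with DICER-delHelicase and by 0.353 with DICER-WT. The longest run that both hairpins share around the 3p miRNA spans 28 bases, shown here with the miRNA in capitals to mark how far the identity reaches on either side.
let-7a-1 and let-7a-3: gauaaCUAUACAAUCUACUGUCUUUCcu
It includes 5 bases before the first and 2 bases after the last base of let-7a-3p, so reads that start within those 5 bases or inside the miRNA, and end within the run, fit both copies. The sources used here do not say how the authors assigned such reads. The longest run shared by any other pair of members in this part of the hairpin was 20 bases, between let-7a-1 and let-7f-1.

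Of the hairpins listed for let-7f, let-7f-2 scored 0.327 with DICER-delHelicase and 0.0755 with DICER-WT, a ratio of 4.34 and the largest change (0.252) within group II. The score of let-7f-1 was 0.124 with DICER-delHelicase and 0.0416 with DICER-WT, a change of 0.0828 and a ratio of 2.99. Both hairpins encode the same 5p miRNA, let-7f-5p, and differ in their 3p arms and loops. The DICER-WT score of let-7f-1 was almost that of let-7e, whereas with DICER-delHelicase let-7f-1 had the lowest score of the family. For mir-98 the scores were 0.292 with DICER-delHelicase and 0.149 with DICER-WT, a ratio of 1.96.

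The precursor let-7d went the other way, with 0.171 for DICER-delHelicase and 0.221 for DICER-WT, a change of -0.0508. Of all hairpins 25.9% were lower with DICER-delHelicase, and 11.6% were lower by at least 0.05. Among the 10 hairpins outside the family with the nearest DICER-WT scores (0.178 to 0.248) the median change was 0.205, and 1 of the 10 had a lower change than let-7d. For the other 6 members the change was above the median of the 10 nearest hairpins, which ran from 0.0570 to 0.157. The margin was often small: let-7f-1 and mir-98 each exceeded 5 of their 10, and let-7a-3 exceeded 6. Higher counts were 7 for let-7a-1, 9 for let-7f-2 and 10 for let-7e. These sets are not separate, since let-7e and let-7f-1 had the same range and median of nearest hairpins. Such a count was not made for hairpins outside the family.

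**Figure D2:**
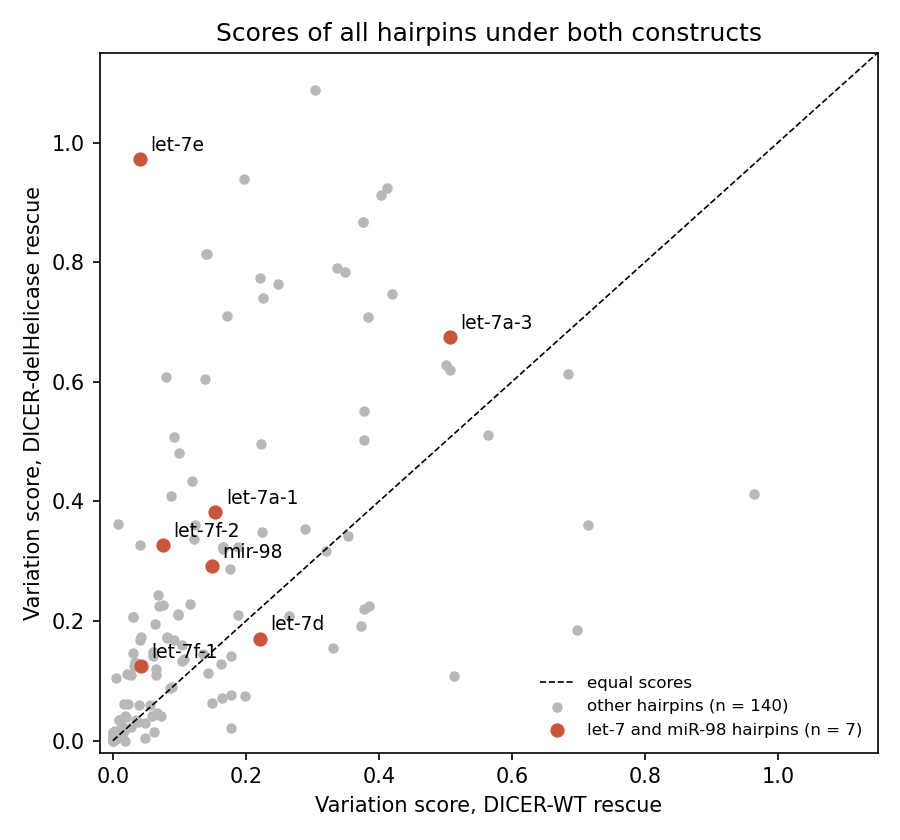
Variation score with DICER-WT (horizontal axis) and with DICER-delHelicase (vertical axis) for all 147 hairpins, each point 1 hairpin, with the 7 members named and the dashed line at equal scores. All members but let-7d lie above the line, let-7e far from it at 0.972, and let-7d, at 0.171, lies below it.

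Precursors encoded side by side had unlike changes. On chromosome 9, let-7a-1 (94175957 to 94176036), let-7f-1 (94176347 to 94176433) and let-7d (94178834 to 94178920) lie on the plus strand within 2964 bases, in an intron of AL158152.2, a long non-coding RNA gene (GRCh38, RefSeq positions, GENCODE 29 genes). In this cluster the changes were 0.228 for let-7a-1, 0.0828 for let-7f-1 and -0.0508 for let-7d. On the minus strand of chromosome X, mir-98 (53556223 to 53556341) and let-7f-2 (53557192 to 53557274) lie within 1052 bases in an intron of the ubiquitin ligase gene HUWE1. The change was 0.143 for mir-98 and 0.252 for let-7f-2. The hairpin of let-7a-3 lies on the plus strand of chromosome 22 (46112749 to 46112822) in an exon of MIRLET7BHG, a long non-coding RNA gene.

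The hairpin of let-7e lies on the plus strand of chromosome 19 (51692786 to 51692864) in an intron of SPACA6, between mir-99b and mir-125a, all within 728 bases. Neither neighbour had a change near that of let-7e. The score of mir-99b was 0.0351 with DICER-delHelicase and 0.00900 with DICER-WT, and that of mir-125a was 0.0760 with DICER-delHelicase and 0.178 with DICER-WT. Of the hairpins clustered with let-7 genes outside this set, the table holds mir-125b-1, a neighbour of let-7a-2, with 0.0407 for DICER-delHelicase and 0.0590 for DICER-WT.

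The loops of the family were long. Between the annotated arms lay 23 nt in let-7e, 26 nt in let-7a-3, 28 nt in let-7f-2, 29 nt in let-7a-1, 32 nt in let-7d, 34 nt in let-7f-1 and 36 nt in mir-98. Both arms could be placed in 101 of the 140 other hairpins, and their loops ran from 8 to 21 nt with a median of 16 nt. None of these 101 loops was as long as the shortest one of the family. In RefSeq all 3 group I hairpins of the family had 23 nt between the arms, and the 9 of group II had 26 to 36 nt.

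**Figure D3:**
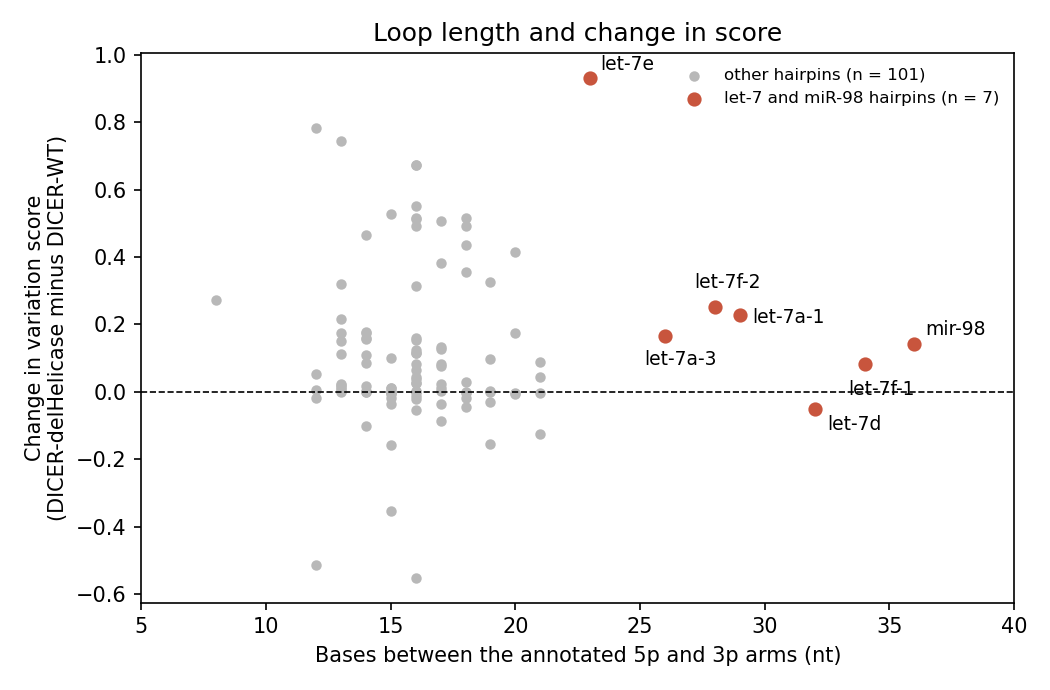
Bases between the annotated arms (horizontal axis, nt) and change in score, DICER-delHelicase minus DICER-WT (vertical axis), for 108 hairpins, each point 1 hairpin. The members occupy 23 to 36 nt, to the right of all others, which end at 21 nt, and the member with the shortest loop, let-7e, has the largest change (0.931).

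Within the family the change tended to be larger in hairpins with shorter loops (Spearman's rho -0.75 over 7 hairpins, and -0.60 over 6 without let-7e). The order was not strict. At 26, 28 and 29 nt the changes were 0.167, 0.252 and 0.228. At 32, 34 and 36 nt they rose with loop length, from -0.0508 in let-7d to 0.0828 in let-7f-1 and 0.143 in mir-98. The shortest loop is also that of the only group I precursor, so loop length and group cannot be told apart for let-7e. Over the 101 other hairpins rho was -0.065. These are descriptions: all points come from the same libraries, and the let-7a copies share a miRNA.

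In the predicted minimum free energy structures the 5p and 3p arms of all 7 precursors formed a long stem, and the bases between the arms were partly paired. The first base of the 3p arm paired so that the 5p arm reached 2 nt beyond its partner in all 7, the overhang that a DICER cut at the annotated ends would leave. Past that pair the stem went on toward the tip without a break on either strand for 4 pairs in let-7f-1, 3 in mir-98, 2 in let-7a-1, let-7a-3 and let-7d, and 1 in let-7e and let-7f-2. The first break was a bulge on the 3′ strand of 9 bases in let-7f-1, mir-98 and let-7a-3 and of 4 bases in let-7f-2. In let-7d it left 3 bases unpaired on the 5′ strand and 10 on the 3′ strand. In let-7a-1 and let-7e it was a bulge on the 5′ strand, of 5 bases in let-7a-1 and 1 base in let-7e. At the other end, which DROSHA leaves, the predicted 3′ overhang with the RefSeq ends was 2 nt in let-7e and in 4 of the 6 group II precursors, and 1 nt in let-7a-1 and let-7a-3. The annotated ends thus did not separate the groups, whose assignment here is background knowledge, and the end of let-7f-2 rests on the length given to its 3p arm. The terminal loop at the tip had 3 nt in let-7a-3, 4 nt in let-7a-1 and let-7e, 5 nt in let-7f-1 and let-7d, 8 nt in let-7f-2 and 11 nt in mir-98. In the centroid structure, which keeps only the more probable pairs, the small stem inside the loop was lost in let-7e and let-7f-2, leaving open loops of 18 and 26 nt, while the other 5 kept their terminal loops. These were also the hairpins with the largest changes, 0.931 for let-7e and 0.252 for let-7f-2. The change of let-7a-1, which kept a terminal loop of 4 nt, was close to the latter at 0.228. This match among 7 precursors was not tested, and the fold of let-7f-2 rests on its placed 3p arm.

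**Figure D4:**
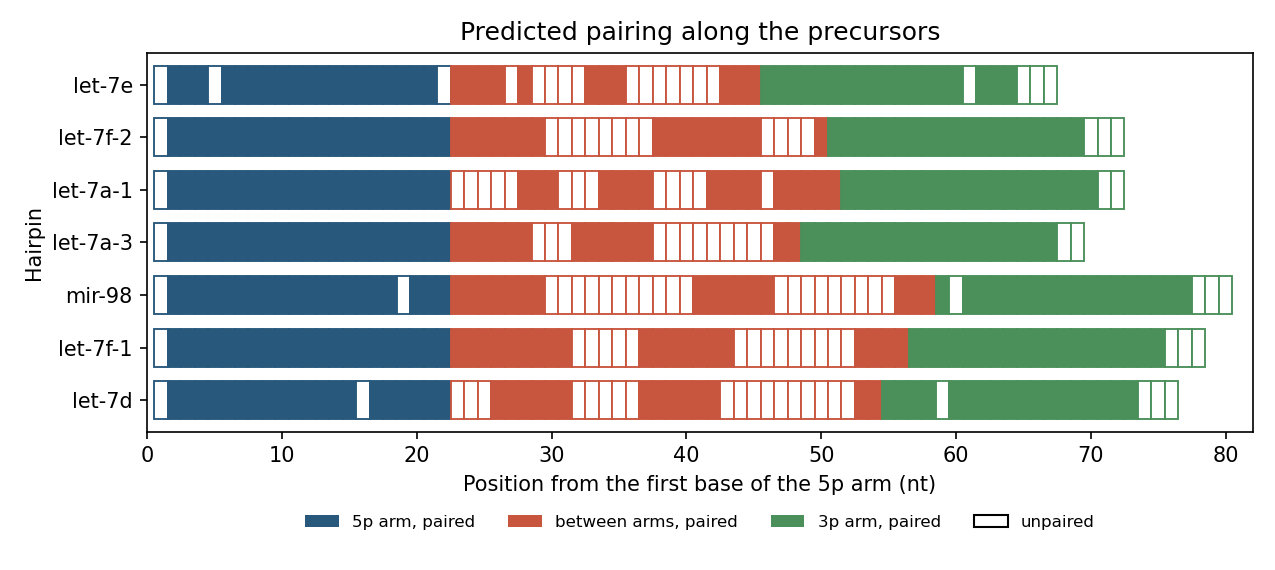
Predicted pairing along each precursor, from the first base of the 5p arm (horizontal axis, nt), with filled boxes for paired and open boxes for unpaired bases, in rows ordered by change from let-7e at the top to let-7d at the bottom. let-7e has the shortest stretch between the arms, 23 nt, and mir-98 the longest, 36 nt.

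Short sequence features of the loop were compared next. The letters GGAG, which LIN28 is known to bind, were searched on the strand of the precursor and were found between the arms of 5 of the 7 hairpins, the exceptions being let-7a-3 and mir-98. In the other hairpins 10 of 101 loops held them (9.90%), loops that are shorter. The changes of let-7a-3 (0.167) and mir-98 (0.143) lay within the range of the 5 hairpins with GGAG. The loop ended in UAA in 6 of the hairpins and in UCA in let-7e.

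The authors' 2-nt class, a Yes or No entry given for the DICER-WT libraries, has no stated definition. It split the family in a way that went with its DICER-WT scores and with its predicted folds. The class was Yes for let-7a-1, let-7a-3 and let-7d, and No for let-7e, let-7f-1, let-7f-2 and mir-98. In the predicted folds each Yes member had 2 pairs stacked past the pair of the first 3p base. The No members had 4 such pairs in let-7f-1, 3 in mir-98, and 1 in let-7e and let-7f-2. The No members thus lay on both sides of the Yes value, and these pairs were not counted in the hairpins outside the family. Whether the class rests on this structure was not tested. The DICER-WT scores were 0.154 to 0.507 in the Yes class and 0.0409 to 0.149 in the No class, so the classes did not overlap, although let-7a-1 and mir-98 lay close together. Both the class and these scores are given for the same libraries. In the 140 other hairpins the classes did overlap, with DICER-WT scores of 0 to 0.964 for Yes and 0 to 0.714 for No. Their median DICER-WT score was 0.0745 for Yes and 0.0778 for No. With DICER-delHelicase the members overlapped, at 0.171 to 0.674 for Yes and 0.124 to 0.972 for No. The score was higher with DICER-delHelicase in 2 of the 3 members of the Yes class and in all 4 of the No class. Over all hairpins of the table that share was 69.9% for Yes and 74.3% for No, so both counts lay near the background.

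Outside the family, the hairpins with the pair of scores nearest to that of let-7e, by Euclidean distance over the 2 constructs and with at most 1 hairpin per miRNA, were mir-139, mir-3158-2 and mir-30c-1. The scores of mir-139 were 0.940 with DICER-delHelicase and 0.196 with DICER-WT, at a distance of 0.159. Those of mir-3158-2 were 0.814 with DICER-delHelicase and 0.140 with DICER-WT. Those of mir-30c-1 were 0.773 with DICER-delHelicase and 0.221 with DICER-WT. Their loops held 13, 16 and 16 nt, each shorter than the 23 nt of let-7e. The hairpins nearest to let-7d were mir-372, mir-193b and mir-760, at distances of 0.0516 to 0.0579. The scores of mir-372 were 0.209 with DICER-delHelicase and 0.187 with DICER-WT. For mir-193b they were 0.141 with DICER-delHelicase and 0.178 with DICER-WT, and for mir-760 they were 0.208 with DICER-delHelicase and 0.265 with DICER-WT. This likeness rests on 2 values per hairpin.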

How the data were processed

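Small RNAs of 6 samples were sequenced with an Illumina TruSeq small RNA kit, per the labels' protocols. The submitters' processing notes name cutadapt, Bowtie2, bedtools and GRCh38, without versions, roles or settings. The authors deposited 1 table with a variation score for each hairpin and construct, and a whole-number offset of the main 5′ end and a 2-nt class for the DICER-WT libraries, per the file headers. The sources used here do not state how a score was made from 3 samples, and the depth is unknown.

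The DICER-WT score was subtracted from the DICER-delHelicase score of each hairpin. Since the table holds no value per sample, no test was run. The family, the lists and the alternatives were chosen with earlier results of these data known. Named hairpins were the 7 members, the listed cluster neighbours found in the table, and the 3 hairpins nearest in both scores to let-7e and to let-7d. The comparison with the 10 hairpins nearest in DICER-WT score, with mir-30b named from it, and the search for GGAG, were added after the values were seen. Arms were placed by exact match of RefSeq mature sequences (GRCh38.p14). Both arms matched in 6 members and 101 other hairpins. Structures were predicted with RNAfold 2.7.2 at 37 °C with default parameters, and their reading was tested on simulated hairpins. Genes were taken from GENCODE 29. Alternatives tried were 1 value per miRNA, means, log2(score + 0.01) ratios, limits of 0.05 and 0.1, leaving out the let-7a copies or let-7e, and the centroid or the whole-hairpin fold.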

Additional observations from a re-analysis of the deposited data

How the results depend on the processing

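No result reversed in the 14 alternatives run. The median change of the family, 0.167, ranged from 0.143 without the let-7a copies to 0.250 as a mean, and was 0.155 without let-7e, an alternative added after the values were seen. As a log2 ratio of the scores plus 0.01 that median was 1.26, and the excess of let-7e over the group II median was 3.18, values on another scale. The count of higher members was 6 with a limit of 0.05, 5 with a limit of 0.1, and 5 of the 6 miRNAs with 1 value per miRNA. The median terminal loop of 5 nt was 29 nt when all bases between the annotated arms were counted, which includes the paired ones and was likewise added after the values were seen. No paired analysis was possible because replicates have no values of their own in the deposited scores, and leaving out replicates was not run for the same reason. The unknown depth limits the reading of low scores such as those of let-7e and let-7f-1 with DICER-WT.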
